A study of Mus musculus with 2 samples.

Results

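The Bcl2 family of survival and death genes was described in spleen RNA of the mouse. The genes were chosen by symbol: every probe set whose platform annotation names 1 of 9 family members was taken. These were the pro-survival genes Bcl2, Bcl2l1 and Mcl1, the pore-forming genes Bax and Bak1, and the BH3-only genes Bad, Bid, Bik and Bcl2l11. Of the 9 members 8 were found, with 14 probe sets among the 12422 of the table that are not controls, and those 8 stand among 8251 named genes. Bax was not analysed here. Total RNA of spleen had been purchased, and it was hybridised to 2 arrays, numbered 1 and 2 as in the labels. These name no strain, age, sex, number of animals or treatment. Both arrays form 1 group, so the design holds no contrast between conditions and allows no test between conditions. The RNA of both arrays had the same catalogue number. Whether the arrays shared a tube or a labelling reaction is not stated, so the spread between them may be technical alone.

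Proteins of the Bcl2 family decide whether the outer membrane of the mitochondrion stays closed. Bax and Bak1 build the pore through which cytochrome c escapes and sets off the caspases; Bcl2, Bcl2l1 (Bcl-xL) and Mcl1 hold them in check. The BH3-only proteins sense damage, lost growth factor signals or death receptors, and either bind the pro-survival proteins or activate the pore formers directly. In the mouse, lymphocytes depend strongly on this balance: mature T and B cells need Bcl2 and Mcl1. Red cell precursors need Bcl2l1, and loss of Bcl2l11 (Bim) lets lymphocytes accumulate in the spleen.

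Values are the deposited signal intensities, in linear units. The term bright is used for a probe set above the 60th percentile of each array; this cutoff was 346.32 for array 1 and 342.22 for array 2. Background came from 15 bacterial control probe sets, whose targets are foreign to mouse; their lowest and highest signals were 2.2 and 95 for array 1, and 3.1 and 76.2 for array 2. Because brightness depends on probe sequence as well as on the amount of transcript, each probe set is read against these limits, and no gene is ranked against another. Median signals of lists are given as descriptions alone. In a whole organ, fewer cells of a type and less RNA per cell cannot be told apart.

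The labelled tissue was set beside markers chosen with earlier results of these data known, so they are no independent check of it. All 15 measured markers of B cells, T cells, macrophages, neutrophils and red cell precursors were bright, against 45.2% of named genes. Snap25 of brain and Umod of kidney lay between 6.2 and 8.6. The 5 markers of exocrine pancreas were bright as well, with a summed signal of 56394 on array 1 and 58689 on array 2, as were both markers of liver, at 2701 and 3229. RNA of those organs also holds Bcl2 family transcripts, and their part in the family's signals was not tested.

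By role, the pro-survival genes were bright in 3 of 3 cases, the single measured pore-forming gene was bright, and the BH3-only genes were bright in 2 of 4. In all, 6 of 8 measured members were bright, each read through its brightest probe set, against 45.2% of named genes, and 7 of 8 lay above the highest bacterial control, against 73.9%. Bad and Bik were the members that were not bright. Counted by probe set, 8 of 14 were bright, against 37.9% of all probe sets. On both arrays 11 of 14 lay above the highest bacterial control, against 65.5% of all probe sets. As a description that probe sequence also sets, the median signal was 1121 over the 8 members and 314 over all named genes. Those medians take the brightest probe set of each gene. Over probe sets the median was 468 for the 14 of the members and 225 for all. Several probe sets were present for 4 of the 8 members and for 25.1% of named genes, which gives such members more than 1 chance to be bright. Of genes with several probe sets 57.0% were bright, as were 3 of those 4 members; of genes with a single one 41.3% were bright, as were 3 of the other 4 members.

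**Figure D1:**
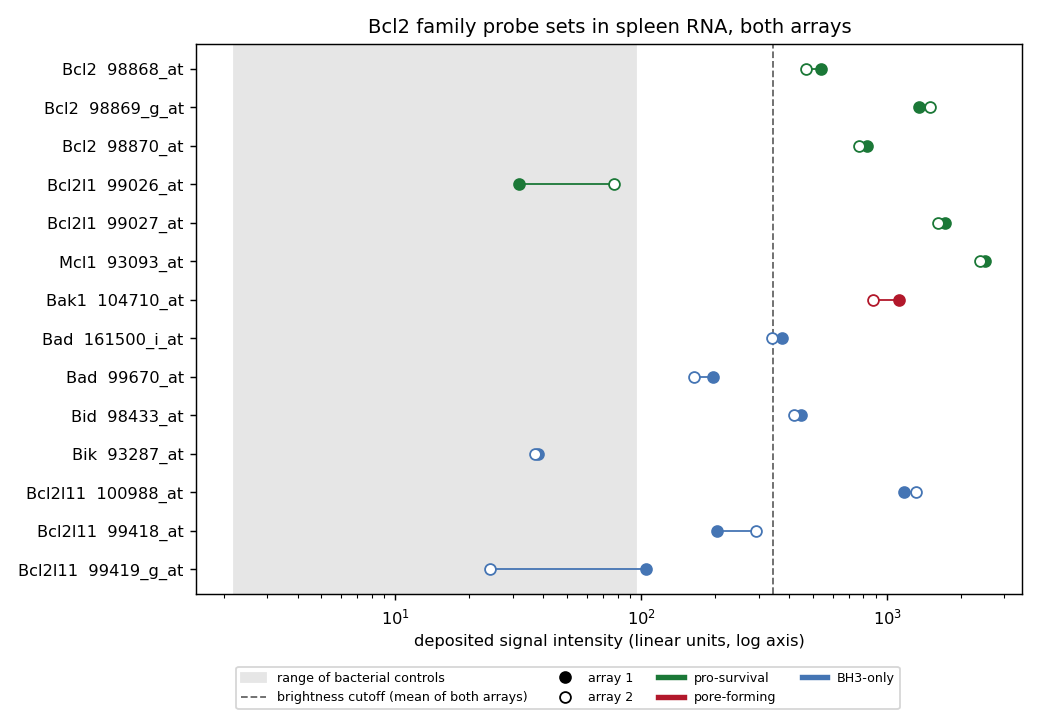
Signal intensity (linear units on a log axis) of the 14 probe sets of the 8 measured members, with array 1 as filled and array 2 as open circles, coloured by role. The grey band spans the 15 bacterial controls of both arrays and the dashed line marks the brightness cutoff, which 8 probe sets exceeded on both arrays. Bik, 1 probe set of Bcl2l1 and 1 reading of Bcl2l11 lie inside the band. Because the band joins both arrays, it holds the array 2 reading of 99026_at of Bcl2l1, 77.3. That reading lies above the highest control of array 2 itself, 76.2.

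Mcl1, a short-lived pro-survival protein that must be made continuously, gave 2497.2 on array 1 and 2394.2 on array 2, a mean of 2446 ± 72.8 (SD, n = 2 arrays here and below). Both readings were close to each other and far above the bacterial controls. They stood at the 95.1st and 94.8th percentiles of their arrays. The log2 difference, array 2 minus array 1 after centring on bright probe sets, was -0.06.

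Bcl2, the founding member and the main survival protein of mature lymphocytes, was read by 3 probe sets designed from 1 sequence record. The probe set 98869_g_at gave 1349.9 and 1489.7 on arrays 1 and 2, a mean of 1420 ± 98.9. The probe set 98870_at gave 829.4 and 767.1, a mean of 798 ± 44.1. The probe set 98868_at gave 537.5 and 467.6, a mean of 503 ± 49.4. All 3 were bright, so for Bcl2 the call does not rest on the choice of probe set. The differences between arrays ran both ways: 98869_g_at was higher on array 2, with a log2 difference of 0.14, and the others were higher on array 1, at -0.11 and -0.20.

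Bcl2l1, which encodes Bcl-xL and through another splice form a death-promoting protein, was read by 2 probe sets that disagreed. The probe set 99027_at gave 1721.8 on array 1 and 1603.6 on array 2, a mean of 1663 ± 83.6, and was bright. The probe set 99026_at, designed from another sequence record, gave 31.8 and 77.3, a mean of 54.6 ± 32.2. The first of these readings lay inside the range of the bacterial controls and the second lay just above the highest of them, 76.2 on that array. The readings of 99026_at were 2.43-fold apart as deposited. On the log2 scale, with array 1 raised to the floor of 41.8 that is the 20th percentile of either array, the difference was 0.89. The files do not state which transcript form each probe set reads.

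Bak1, a pore former that sits in the mitochondrial outer membrane, gave 1121.9 on array 1 and 878.2 on array 2, a mean of 1000.05 ± 172. Both readings were bright, at the 86.2nd and 81.7th percentiles. The log2 difference of -0.35 was the widest among the 8 bright probe sets of the family. Its size was within 0.44, the limit below which 95% of all bright probe sets lay.

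Among the BH3-only genes, Bid encodes the protein that carries the death receptor signal to the mitochondrion after caspase-8 cuts it. It gave 447.1 on array 1 and 418.7 on array 2, a mean of 433 ± 20.1. Both readings passed the cutoff, though at the 66.3rd and 65.0th percentiles they stood near it. With the cutoff at the 75th percentile Bid was no longer bright.

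Bcl2l11 encodes Bim, which binds all pro-survival proteins of the family and removes self-reactive lymphocytes. Its 3 probe sets fell on either side of the cutoff. The probe set 100988_at gave 1170.7 on array 1 and 1312.6 on array 2, a mean of 1242 ± 100.3, and was bright. The probe set 99418_at gave 203.2 and 293.4, a mean of 248 ± 63.8, above the bacterial controls on both arrays but not bright. The probe set 99419_g_at, from the same sequence record as 99418_at, gave 104.8 and 24.2, a mean of 64.5 ± 57.0. It lay above the bacterial controls on array 1 alone.

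That last probe set was the only 1 of the 14 with a difference over 2-fold on the floored log2 scale, at -1.32, against 5.13% of all probe sets. Its deposited readings were 4.33-fold apart. Of the 4 nearly equal groups into which all probe sets were split by mean signal, it belongs to the one between 60.8 and 225.4, where 16.2% differed by more than 2-fold and the pooled SD of a log2 signal was 0.51. The bright probe set of Bcl2l11 differed by 0.17 in the opposite direction.

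Bad, which neutralises Bcl2 and Bcl-xL unless survival kinases have phosphorylated it, missed the cutoff narrowly. The probe set 161500_i_at, whose suffix marks a set with fewer probes than the design required, gave 373.7 on array 1 and 340.9 on array 2, a mean of 357 ± 23.2. It passed the cutoff on array 1 and lay just under the 342.22 of array 2. The probe set 99670_at gave 196 and 163.6, a mean of 180 ± 22.9, above the bacterial controls on both arrays but not bright.

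Bik, a BH3-only protein of the endoplasmic reticulum, was read by 1 probe set, which gave 38 on array 1 and 37.1 on array 2, a mean of 37.6 ± 0.64. Both readings were inside the range of the bacterial controls and under the floor of 41.8. Bik was the only measured member without a probe set above the highest bacterial control, and no level can be given for it beyond this bound.

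**Figure D2:**
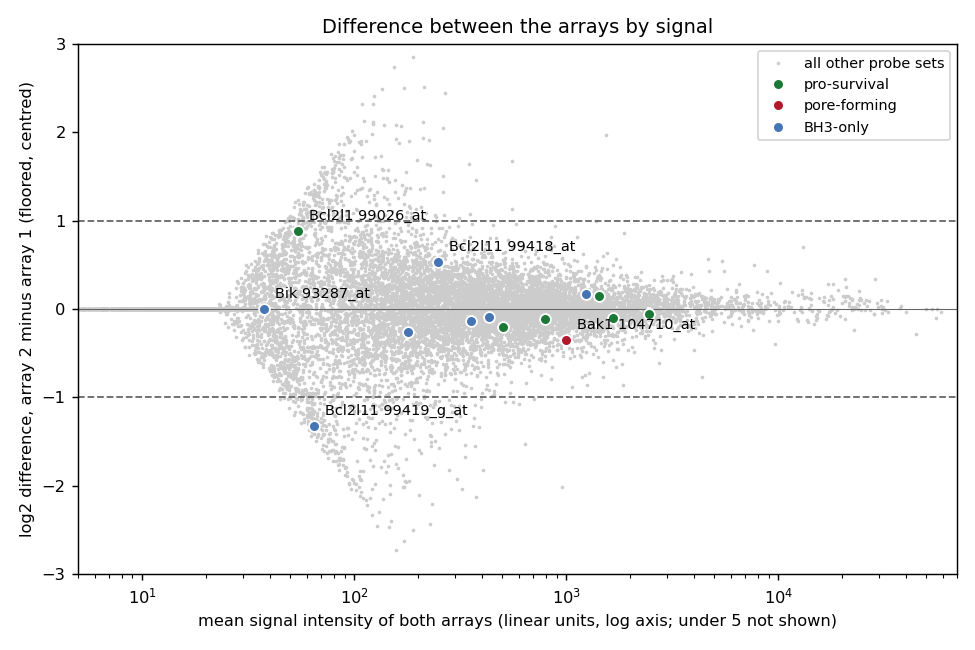
Log2 difference, array 2 minus array 1 (floored and centred), of every probe set (grey) and of the 14 family probe sets (coloured by role) against the mean signal of both arrays on a log axis; dashed lines mark a 2-fold difference and mean signals under 5 are not drawn. The family's wide differences are at low signal, where 99419_g_at of Bcl2l11 reached -1.32 and 99026_at of Bcl2l1 reached 0.89, and its 8 bright probe sets lie between -0.35 and 0.17.

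Across the family the arrays matched closely where signal was high. Over the 8 bright probe sets the SD was 2.98% to 17.2% of the mean, with a median of 6.24%, against 5.74% over all 4708 bright probe sets. Of the 8, 2 were higher on array 2, against 50% of all bright probe sets, a share that the centring fixes. None of the 8 differed by more than 2-fold, as did 0.127% of all bright probe sets. By role, the SD among bright probe sets ran from 2.98% to 9.84% for the pro-survival genes and was 4.64% and 8.08% for the BH3-only probe sets of Bid and Bcl2l11. The ranges of these roles overlap, whereas the 17.2% of Bak1, the single pore-forming probe set, lay above both. With 2 arrays no difference between roles was tested.

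Probe sets of 1 gene disagreed often on this array. Of the 4 members with several probe sets, Bcl2l1 and Bcl2l11 had a bright one together with others that were not bright. Among all named genes 2073 had several probe sets, and 1182 of these had at least 1 bright probe set. Among those 1182, 74.6% also had 1 that was not bright. A bright probe set together with another at or below the bacterial controls on both arrays was found for 32.4% of those 1182 genes. Of the members, no gene met that stricter description, since 99026_at of Bcl2l1 passed the controls on array 2 and 99419_g_at of Bcl2l11 passed them on array 1.

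The share of members above a cutoff was followed over cutoffs from the lowest to the highest signals. With the cutoff at the 50th percentile Bad joined the bright genes, so that 7 of 8 members passed, against 55.7% of named genes. At the 75th percentile 5 of 8 passed, against 28.5%: Bcl2, Bcl2l1, Mcl1, Bak1 and Bcl2l11. At the 90th percentile 2 of 8 passed, against 10.7%, and at the 95th percentile 0 passed, against 5.05%. The pro-survival genes thus stayed bright at the 75th percentile in 3 of 3 cases, and the BH3-only genes in 1 of 4.

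**Figure D3:**
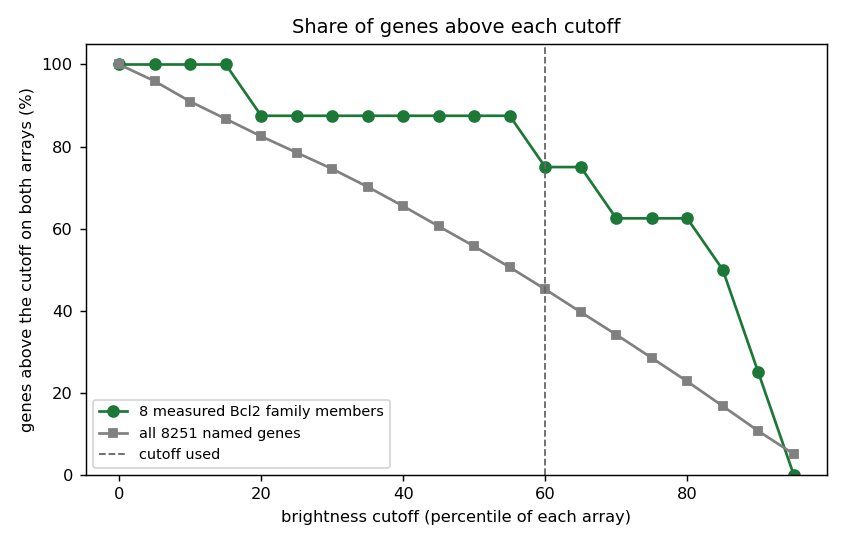
Percentage of the 8 measured members (green circles) and of all 8251 named genes (grey squares) whose brightest probe set lay above a cutoff on both arrays, against the cutoff as a percentile of each array. At the dashed line, the 60th percentile, 75% of the members and 45.2% of named genes passed; the members' curve lies above that of all genes from the 5th to the 90th percentile and below it at the 95th.

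Promoter sequence was set beside these calls for 7 of the 8 measured members, which together have 11 annotated start sites in the RefSeq promoter table of build GRCm38.p6; Bik is not in that table. The arrays name no genome build, so these positions belong to the RefSeq table and not to the probe sets. The 250 bases before the start site are printed for 1 bright gene of each role that has a single probe set and a single start site, so that signal and promoter refer to each other without a choice. Capitals mark the GC box GGGCGG or its reverse complement CCGCCC, the binding motif of Sp-family factors, and each line runs 5′ to 3′ along the gene.
Mcl1 promoter (chr3:95658471-95658720, + strand): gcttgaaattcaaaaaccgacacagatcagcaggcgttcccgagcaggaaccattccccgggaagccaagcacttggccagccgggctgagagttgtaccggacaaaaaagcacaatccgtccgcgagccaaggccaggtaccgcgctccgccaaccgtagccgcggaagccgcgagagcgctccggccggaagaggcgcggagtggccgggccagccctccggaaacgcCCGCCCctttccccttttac
Bak1 promoter (chr17:27028628-27028877, - strand): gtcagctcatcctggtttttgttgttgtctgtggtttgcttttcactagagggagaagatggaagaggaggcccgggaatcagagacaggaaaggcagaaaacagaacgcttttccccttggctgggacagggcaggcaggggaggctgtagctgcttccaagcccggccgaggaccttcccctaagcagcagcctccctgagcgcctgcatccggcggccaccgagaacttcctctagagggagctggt
Bid promoter (chr6:120916825-120917074, - strand): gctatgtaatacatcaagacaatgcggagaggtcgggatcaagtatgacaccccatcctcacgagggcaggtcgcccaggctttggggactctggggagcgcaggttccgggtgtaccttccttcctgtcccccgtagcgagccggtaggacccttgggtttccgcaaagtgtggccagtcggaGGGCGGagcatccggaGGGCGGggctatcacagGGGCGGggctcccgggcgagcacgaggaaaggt

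The Mcl1 promoter held 26 CG dinucleotides and 1 GC box. That of Bid held 18 CG dinucleotides and 3 GC boxes, and that of Bak1 held 8 CG dinucleotides and 0 GC boxes. All 3 genes were bright. Over all 32851 promoters of the table the median was 6 CG dinucleotides. The 11 start sites of the members ranged from 0 at 1 start site of Bcl2l1 to 36 at that of Bcl2, with a median of 18. A GC box on either strand, overlapping matches included, was present at 6 of 11 start sites, against 32.7% of all promoters. Those 6 start sites belong to 5 of 7 genes, a count for which no share over all genes was computed. The letters CCAAT or ATTGG were present at 3 of 11, at both start sites of Bcl2l11 and 1 of Bad, against 33.8% of all promoters. TATAAA or TTTATA was present at 0 of 11, against 12.4%. Such matches describe the letters of the window and show no binding.

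The remaining genes of the family were read in the same way. Of 17 listed relatives 6 had a probe set that names 1 gene, and 3 of these were bright, against 45.2% of named genes. Bcl2l2, the pro-survival protein Bcl-w, gave 419 on array 1 and 416.5 on array 2. Bok, a pore-forming relative, gave 642.5 and 560.4. Bcl2l13, a mitochondrial relative, gave 924.5 and 792. Those 3 were bright on both arrays.

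The relatives that were not bright were Bcl2l10, Hrk and Bnip3. Hrk, a BH3-only protein known best from neurons, gave 19.8 and 61.2, both inside the range of the bacterial controls. Bnip3, a hypoxia-induced protein of mitochondrial turnover, gave 134.3 and 117.5. For Bcl2l10 the probe set 162021_r_at gave 400.6 and 178.8, a log2 difference of -1.16, while 96044_at gave 90.8 and 98.8. The suffix of 162021_r_at marks relaxed probe selection.

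The pro-survival Bcl2a1 genes, which encode the A1 protein of blood cells and have near-identical copies in the mouse, were read only by probe sets that name several genes. These cannot be assigned to 1 copy. The probe set 102914_s_at, which also names Mthfs, gave 3278 and 3232.9, and 93869_s_at gave 2564.1 and 2350.8. The probe set 102913_at gave 62.7 and 48.9, inside the range of the bacterial controls. The probe set 96255_at, which names Bnip3l, a protein needed to clear mitochondria from maturing red cells, together with its pseudogene, gave 2677.9 and 2777.2.

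Genes that act before and after the family were counted from 4 further lists. These were chosen with earlier results of these data known, so their shares describe the listed genes alone. Downstream of the pore, 6 of 11 measured genes of the apoptosome, the caspases and their inhibitors were bright, against 45.2% of named genes, with a median signal of 360. Cycs, the cytochrome c released through the pore, gave 153 on array 1 and 185.7 on array 2 and was not bright. Apaf1, the scaffold of the apoptosome, gave 356.3 and 364.5. Casp9, the caspase it activates, gave 387.8 and 344.3 on its brightest probe set, and Casp6, an executioner caspase, gave 122.6 and 120.9. Apaf1 and Casp9 passed the cutoff by a small margin, and the other 3 probe sets of Casp9 were not bright. Diablo, which relieves caspase inhibition, gave 13.4 and 12.4 and was the only gene of the list with no reading above the bacterial controls.

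In the death receptor arm that leads to Bid, 3 of 7 measured genes were bright, against 45.2% of named genes, with a median signal of 275. Casp8, the caspase that cuts Bid, gave 416.9 and 421.4 and was bright. Fadd, the adaptor that recruits it, gave 317.6 and 231.9 and was not. Fas, a death receptor, gave 56.7 and 67.5, and its ligand Fasl gave 23.4 and 41.8. Both lay inside the range of the bacterial controls. The other bright genes were Cflar and Tnfrsf1a.

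Among genes of the mitochondrial membranes and their contacts 7 of 9 were bright, against 45.2% of named genes, with a median signal of 688. Vdac2, the channel that holds Bak1 at the outer membrane, gave 382.7 and 335.7 on its brighter probe set, passing the cutoff on array 1 alone. That probe set, 160529_r_at, carries the suffix of relaxed probe selection. The other probe set of Vdac2, 161255_at, gave 18.5 and 16.4, inside the range of the bacterial controls. Vdac1 gave 88.9 and 151.4 and was not bright, whereas Vdac3 gave 766.7 and 610.1. Mtch2, the membrane receptor of cleaved Bid, gave 544.9 and 693.1 and was bright. A dimmer probe set of the nucleotide carrier Slc25a5, 100617_at, gave 118.7 and 56.1, which differ by -1.08 on the log2 scale. The brightest of that gene, 100618_f_at, gave 1237.7 and 1614.8, while 100619_r_at gave 268.5 and 242.5 and was not bright. With probe sets of suffix f, g, i, r, s or x left out, Slc25a5 was not bright.

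Of the regulators of the members 13 of 14 were bright, against 45.2% of named genes, with a median signal of 1237. That share depends on which genes were listed and is not a trait of the family's regulators in general. Foxo3, a transcription factor that induces Bcl2l11, gave 1075.6 and 1297.2. Huwe1, a ubiquitin ligase of Mcl1, gave 1361.1 and 1212.8 on its brighter probe set. Usp9x, which removes ubiquitin from Mcl1, gave 735.2 and 731.4 on its brighter probe set. The dimmer probe sets, 95938_at of Huwe1 at 147.9 and 205.3 and 99102_at of Usp9x at 89.8 and 150.9, were not bright. Pim1, a kinase that phosphorylates Bad, gave 1943.2 and 2158.5 on its brighter probe set. The regulator that was not bright was Fbxw7, another ubiquitin ligase of Mcl1, at 223.9 and 232.1. Over the 4 lists and the relatives together 32 of 47 measured genes were bright, against the same 45.2%.

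**Figure D4:**
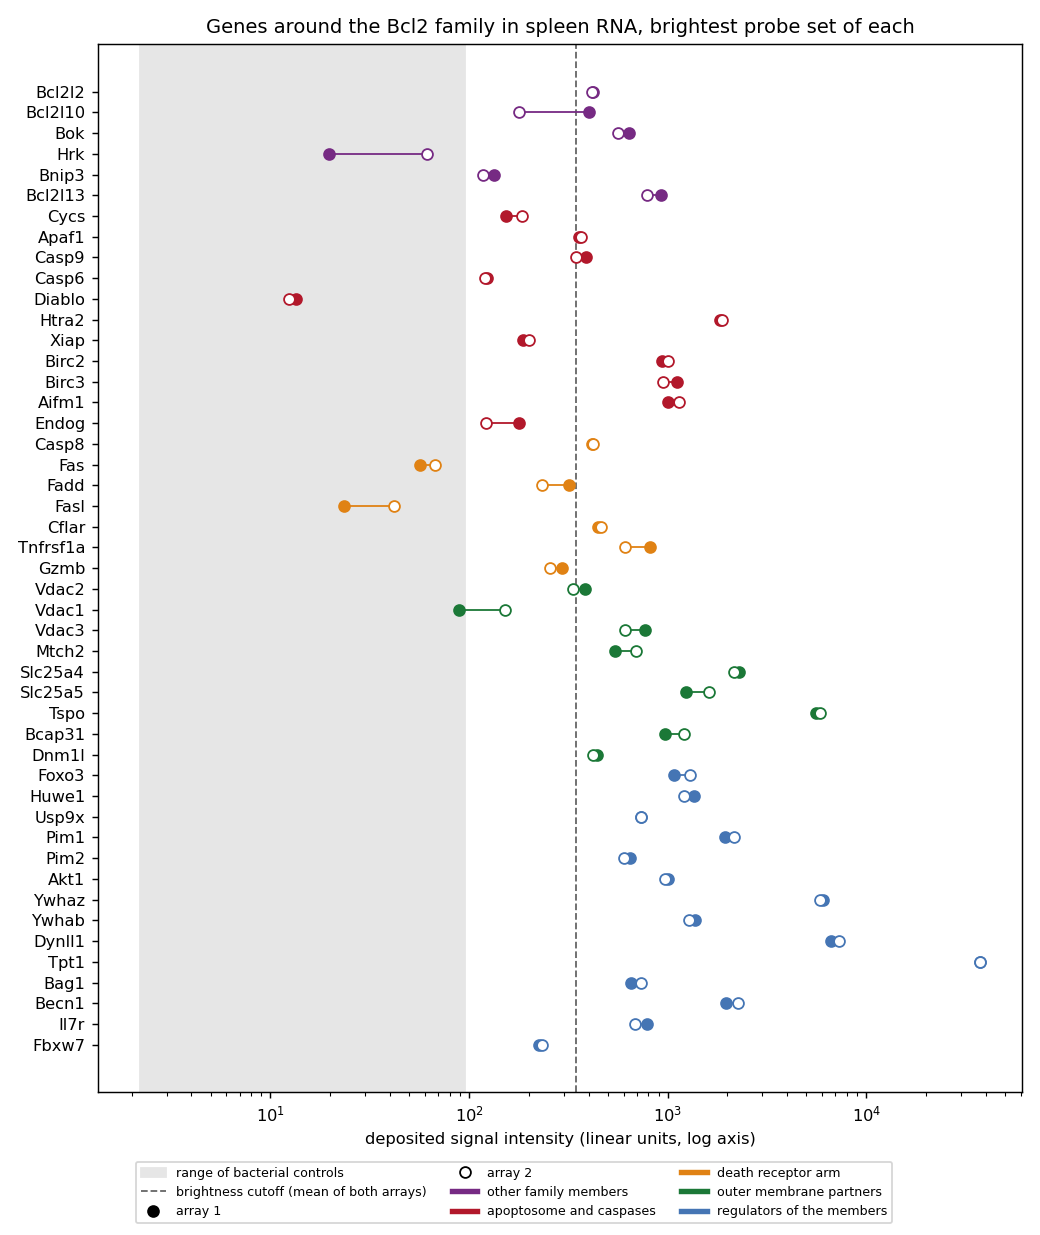
Signal intensity (linear units on a log axis) of the 47 measured genes around the family, each read through its brightest probe set, with array 1 as filled and array 2 as open circles, coloured by list. The dashed line marks the brightness cutoff and the grey band the range of the bacterial controls. On both arrays 32 genes passed the cutoff, among them 13 of the 14 regulators of the members. The lists were chosen with earlier results of these data known, so these counts describe the listed genes alone.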

How the data were processed

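RNA of mouse spleen was read on 2 arrays. The deposited table holds linear signal intensities, 1 for each probe set on each array. How the authors computed them is not stated in the labels or the file. With the lowest and highest 2% left out, the means were 500.265 and 500.278, so the deposited intensity values had been scaled to a common target. An array holds no read depth, and 2 arrays limit the precision.

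Intensities were used as deposited. Of 12488 probe sets 66 controls (prefix AFFX) were left out of percentiles and counts. Genes were named from the platform annotation: 10833 probe sets name 1 gene, 396 several and 1193 none. Gene identifiers of 10817 were found in RefSeq (GRCm38.p6). Where several probe sets name a gene alone, the one of highest mean log2 signal stood for it. For log2 differences, intensities were floored at the 20th percentile of their array, and the median difference of bright probe sets was set to 0. The calculation of the difference calls was also tried on simulated data. No outcome of that trial is given, so nothing is concluded from it on how reliable a call is, least of all at low signal.

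The members, lists and markers were chosen with earlier results of these data known. Named genes were all members, all measured relatives, the first 4 measured genes of each further list and genes over 2-fold apart above the floor; Diablo, Cflar, Tnfrsf1a and Fbxw7, and the probe sets of several genes, were named after their values were seen. No likeness of patterns was computed, since 2 arrays of 1 group hold none. Alternatives changed the cutoff, the floor, the normalization, the probe sets of a gene or the arrays used. Computations ran in Python 3.11.15 (scipy 1.17.1, pandas 2.3.3, numpy 2.4.6) and figures in matplotlib 3.10.9.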

Additional observations from a re-analysis of the deposited data

How the results depend on the processing

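Bright members, 6 of 8, ranged from 4 to 7 over the alternatives. They were 4 with the mean over the probe sets of a gene, where Bcl2l1 and Bcl2l11 were lost and 38.3% of named genes passed, and 7 where the highest bacterial control served as the cutoff, which 73.9% passed. Without 1 array or the other, 6 to 7 members and 32 to 34 genes of the lists were bright, against 47.6% of named genes either way, and 8 to 9 of the members' probe sets, against 40% of all. On array 2 alone and on array 1 alone 12 of their probe sets lay above the bacterial controls, against 71.3% and 67.8% of all. Bad was the member that array 1 alone added. The 32 bright genes of the lists became 21 with the cutoff at the 75th percentile, which 28.5% of named genes passed. They became 42 with that at the highest control, which 73.9% passed. With the mean over the probe sets of a gene they were 27 of 47, against 38.3% of named genes. With probe sets of suffix f, g, i, r, s or x left out they were 29 of 45 measured, against 43.4%. Without the floor 2 probe sets of the members differed by more than 2-fold in place of 1, against 14.2% of all probe sets: 99026_at of Bcl2l1 at 1.28 and 99419_g_at of Bcl2l11 at -2.11. A pseudocount of 16, quantile normalization and no centring each left that count at 1. Of 56 recomputed differences 54 moved by less than the pooled SD of their signal range. The 2 that moved more were those of 99026_at and 99419_g_at without the floor. Of the differences over 2-fold, 0 changed direction. Probe sets that name several genes could change nothing, since none names a member. No paired analysis was possible because both arrays belong to 1 group. With 2 arrays, no check for an array that stands apart could be made.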
